A study of Mus musculus with 32 samples.

Results

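The 7 blastocyst libraries were compared across all genes: 4 labelled as knockdown of Gata4 by injected siRNA and 3 labelled as knockdown controls, out of 32 samples in the series. All 7 came from C57BL/6N x DBA/2N embryos cultured in CZB medium with glutamine, and polyadenylated RNA was sequenced with Smart-seq2, slightly modified, which amplifies whole transcripts from a few cells. The number of embryos per library and whether libraries came from separate litters are not given in the sources used here, so p-values measure only the spread between these libraries, which may be technical. Both groups were whole injected blastocysts, in which the trophectoderm, the epiblast and the primitive endoderm contribute RNA together. Fewer cells of a type and less RNA per cell cannot be told apart in such bulk samples.

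Gata4 is a zinc finger transcription factor that binds DNA around the letters GATA. In the late blastocyst it is expressed in the primitive endoderm, the layer on the inner cell mass that lines the blastocoel, together with Gata6, Sox17 and the receptor Pdgfra. Primitive endoderm forms from inner cell mass cells that receive FGF signals through ERK, and it secretes laminins and type IV collagen that build the first basement membranes of the embryo.

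The libraries were of 2 kinds. The ribosomal RNA precursor gene Rn45s stood at 0 in knockdown libraries 1 and 2 and in control library 2. It stood between 37959 and 44718 FPKM (fragments per kilobase, in relation to library depth) in knockdown libraries 3 and 4 and in control libraries 1 and 3. The labels do not name these 2 library types, and what made them is not given in the sources used here. FPKM totals lay between 237292 and 366359, and 7378 to 8945 genes reached 1 FPKM per library. Relative depth within a library type, read from the steps of low values, differed by up to 1.77-fold without Rn45s and 1.6-fold with it. The library type was therefore a term in the main comparison, which used limma on log2(FPKM + 1) over the 8782 of 22536 genes that reached 1 FPKM in at least 3 libraries. Between library types, 4482 genes (51.0%) were lower and 14 (0.159%) were higher with Rn45s at an adjusted p under 0.05. After median scaling, quantile normalization or scaling to equal totals without Rn45s, 1 gene differed, and it was higher with Rn45s. Rn45s itself, whose level defines the library types, was among the genes tested.

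**Figure D1:**
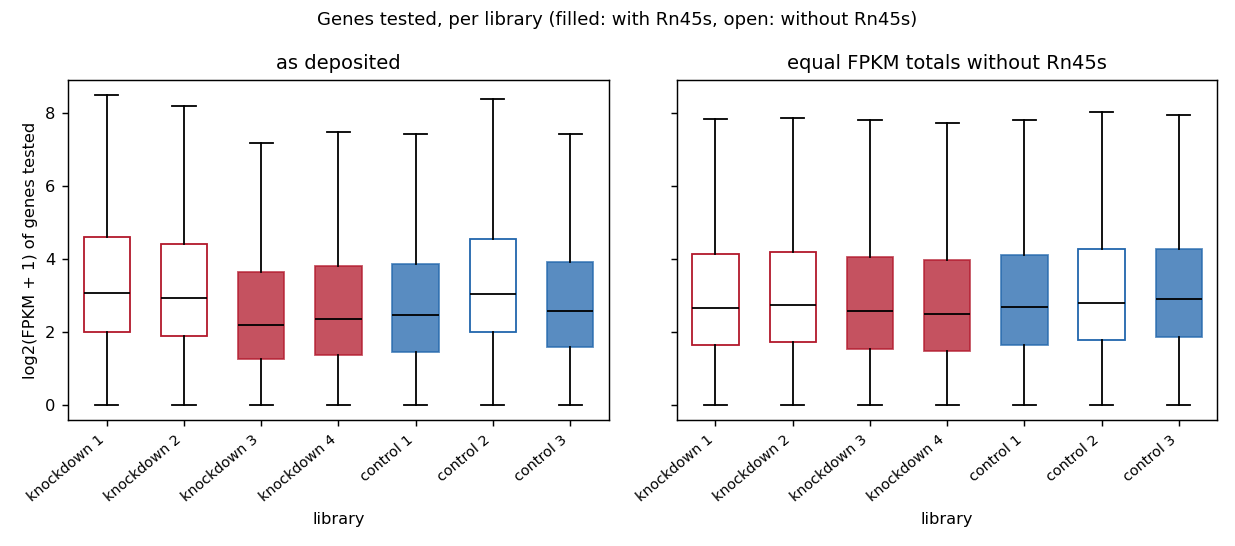
Boxes give the median and quartiles of log2(FPKM + 1) of the genes tested in each library, as deposited (left) and after scaling to equal FPKM totals without Rn45s (right), with whiskers by Tukey's rule. The 4 filled libraries with Rn45s sit below the 3 open ones as deposited, and at equal totals the boxes lie close together.

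Gata4 itself was listed at 0 FPKM in knockdown libraries 1, 3 and 4 and at 0.368 FPKM in knockdown library 2, against 3.18, 0.716 and 5.44 FPKM in control libraries 1 to 3. Every knockdown library was below every control library, and control library 2 was the lowest control. An exact permutation test of the 35 arrangements of the libraries gave a two-sided p of 0.0571, the smallest this design allows. Gata4 did not reach 1 FPKM in 3 libraries and was not among the genes tested. With no filter its difference was -1.65 in log2(FPKM + 1), with an adjusted p of 0.819 from limma. In the authors' stage table it stood at 17.7 FPKM in 4-cell embryos, 8.04 FPKM in 8-cell embryos and 5.44 FPKM in the inner cell mass. It was listed at 0 in embryonic stem cells.

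No gene passed an adjusted p of 0.05 in limma's comparison of knockdown with control. That is 0 genes lower (0.00%) and 0 higher (0.00%) of 8782, with a smallest adjusted p of 0.361. At an unadjusted p under 0.05, 527 genes (6.00%) were lower and 177 (2.02%) were higher. Within both library types and the same way in both, every knockdown library was below every control library for 1163 genes (13.2%) and above for 307 (3.50%). The difference was negative for 5944 genes (67.7%), and its median over all genes was -0.13 in log2(FPKM + 1). This split depended on the scaling: of the genes at an unadjusted p under 0.05, 74.9% were lower as deposited and 83.5% at equal totals without Rn45s, where the median of all genes was -0.17. It was 40% under median scaling, with 260 genes lower and 390 higher and a median of 0.014, and 46.1% under quantile normalization, with 278 lower and 325 higher. Differences of single genes are therefore read below against the median of all genes. Without the library type in the model, 3 genes were lower at an adjusted p under 0.05 in limma: Aqp8, Timp1 and 3830403N18Rik.

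Aqp8, a water channel, had 0.156, 0.277, 0.630 and 0 FPKM in knockdown libraries 1 to 4, against 5.94, 4.00 and 15.1 FPKM in control libraries 1 to 3. All 4 knockdown libraries were below 1 FPKM and all 3 controls were well above it. Its difference was -2.65 with an SE of 0.36 (unadjusted p = 6.1e-05, adjusted p = 0.361), and it was -3.05 within libraries with Rn45s and -2.04 within those without. It entered the test through the controls alone, as did 14 genes in all (0.159% of those tested). The authors' stage table gives it 99.3 FPKM in the inner cell mass and lists it at 0 in 8-cell embryos.

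Timp1, a secreted inhibitor of matrix metalloproteases, had 0.655, 4.12, 0.235 and 0 FPKM in knockdown libraries 1 to 4, against 11.2, 9.64 and 9.72 FPKM in control libraries 1 to 3. The controls lay close together, and knockdown library 2 was the highest knockdown. The difference was -2.77 with an SE of 0.44 (unadjusted p = 1.9e-04, adjusted p = 0.361). Leaving out knockdown library 2 gave an adjusted p of 0.0144 in limma, and Timp1 was then the 1 gene called. In that fit it entered the test through the controls alone, and the library left out was its highest knockdown. The third gene, 3830403N18Rik, was listed at 0 in all 4 knockdown libraries, against 4.73, 1.08 and 3.65 FPKM in control libraries 1 to 3; it has near-identical copies, so its values are uncertain, and it too entered the test through the controls alone.

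**Figure D2:**
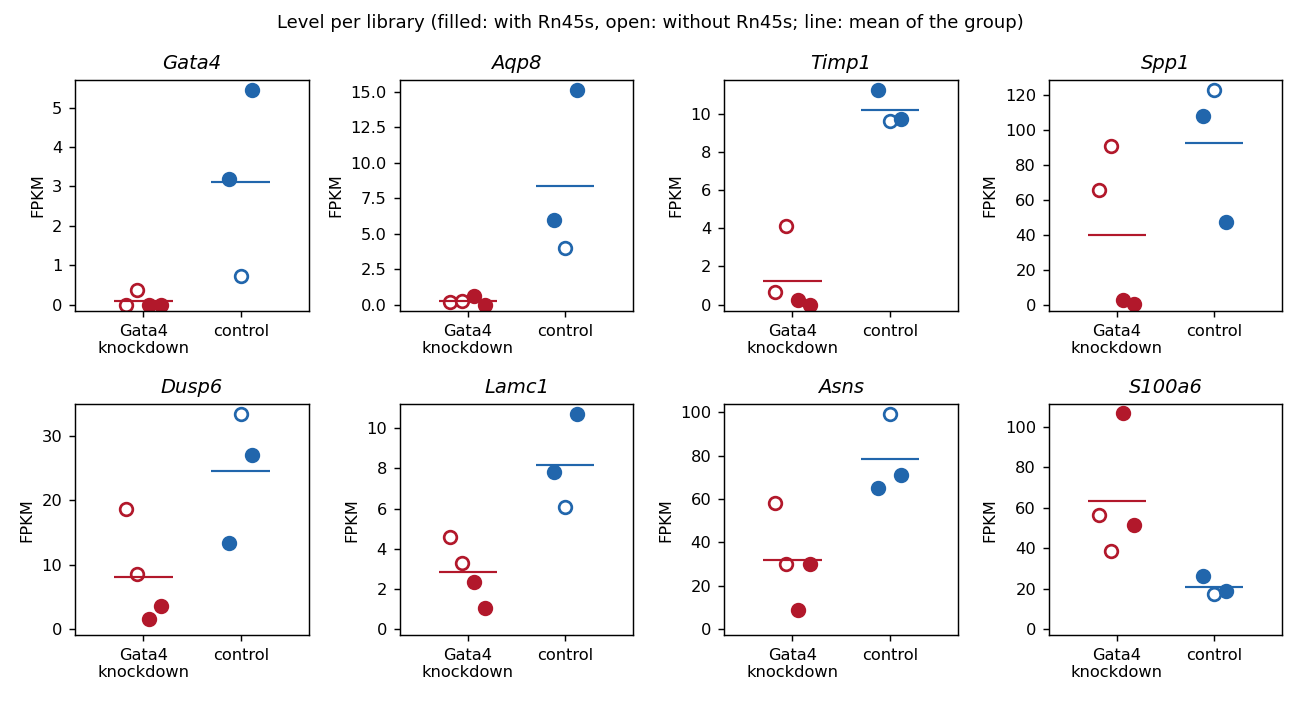
Each point is the FPKM of 1 library, with Gata4 knockdown left of control, filled for libraries with Rn45s and open for those without, and a line at the group mean. Aqp8 and Timp1 do not overlap between the groups, while Spp1 at 65.5 and 90.7 FPKM in the open knockdown libraries lies above the lowest control at 47.2 FPKM.

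The 12 largest negative differences among genes without overlap were chosen by rule from 644 named genes that averaged at least 5 FPKM in the higher group. Spp1, the secreted phosphoprotein osteopontin, had the largest at -3.30 with an SE of 0.85 (unadjusted p = 0.00437). It stood at 65.5, 90.7, 2.80 and 0.25 FPKM in knockdown libraries 1 to 4, against 108, 122 and 47.2 FPKM in control libraries 1 to 3. The 2 knockdown libraries with Rn45s were far below the rest, with a difference of -5.06 in that library type and of -0.66 in the other. The difference between these 2 effects had an unadjusted p of 0.0015 and an adjusted p of 0.385 in limma. The authors' stage table gives Spp1 2088 FPKM in the inner cell mass and 0.173 FPKM in 8-cell embryos.

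Genes of receptor and ERK signalling were among the others. Dusp6, a phosphatase that inactivates ERK and is itself induced by ERK, had 18.7, 8.56, 1.49 and 3.56 FPKM in knockdown libraries 1 to 4, against 13.3, 33.3 and 26.9 FPKM in control libraries 1 to 3. Within each library type the knockdowns were lower, at a difference of -2.07 with an SE of 0.41 (unadjusted p = 9.1e-04). Dusp4, a related phosphatase, had 0.965, 2.72, 1.52 and 0 FPKM in knockdown libraries 1 to 4, against 3.36, 11.1 and 3.44 FPKM in control libraries 1 to 3. Plaur, the urokinase receptor, had 0.812, 2.91, 1.58 and 0.255 FPKM in knockdown libraries 1 to 4, against 4.57, 8.12 and 5.74 FPKM in control libraries 1 to 3. For both genes all knockdown libraries lay below all controls, at differences of -1.75 and -1.77.

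The other genes of the 12 were as follows. Asns, which makes asparagine, had 58.3, 29.8, 8.70 and 29.9 FPKM in knockdown libraries 1 to 4, against 65.2, 99.3 and 71.3 FPKM in control libraries 1 to 3, a difference of -1.69. Sqle, the squalene epoxidase of cholesterol synthesis, had 3.22, 4.41, 1.39 and 2.15 FPKM in knockdown libraries 1 to 4, against 15.2, 7.70 and 10.1 FPKM in control libraries 1 to 3, a difference of -1.72. Neither gene overlapped between the groups. The uridine phosphorylase Upp1 differed by -2.31, the stress protein Nupr1 by -1.79, the TGF-beta family member Gdf15 by -1.68 and the imprinting factor Zfp57 by -1.58. Of these 4, only Gdf15 had all knockdown libraries below all controls; the other three did so only within each library type.

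The 12 largest positive differences came from 209 such genes. S100a6, a calcium-binding protein, had 56.5, 38.7, 107 and 51.7 FPKM in knockdown libraries 1 to 4, against 26.0, 17.4 and 18.9 FPKM in control libraries 1 to 3. Its difference was 1.57 with an SE of 0.29 (unadjusted p = 5.2e-04, adjusted p = 0.395), and it was alike in both library types at 1.7 with Rn45s and 1.38 without. Lgals4, a galectin, had 26.6, 26.3, 36.7 and 10.1 FPKM in knockdown libraries 1 to 4, against 6.37, 10.8 and 7.72 FPKM in control libraries 1 to 3, so knockdown library 4 lay within the range of the controls. Agrp, the agouti-related peptide, differed by 1.61, the glutathione transferase Mgst2 by 1.6, and Myl4, a myosin light chain, by 1.38. The serine protease Klk8 differed by 1.11, D5Ertd605e by 1.09, and Cited4 and Tmem45b by 1.08 each. Hist1h2bc at 1.33, Ftl1 at 1.09 and Rpl38 at 1.06 have near-identical copies, so their values are uncertain.

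**Figure D3:**
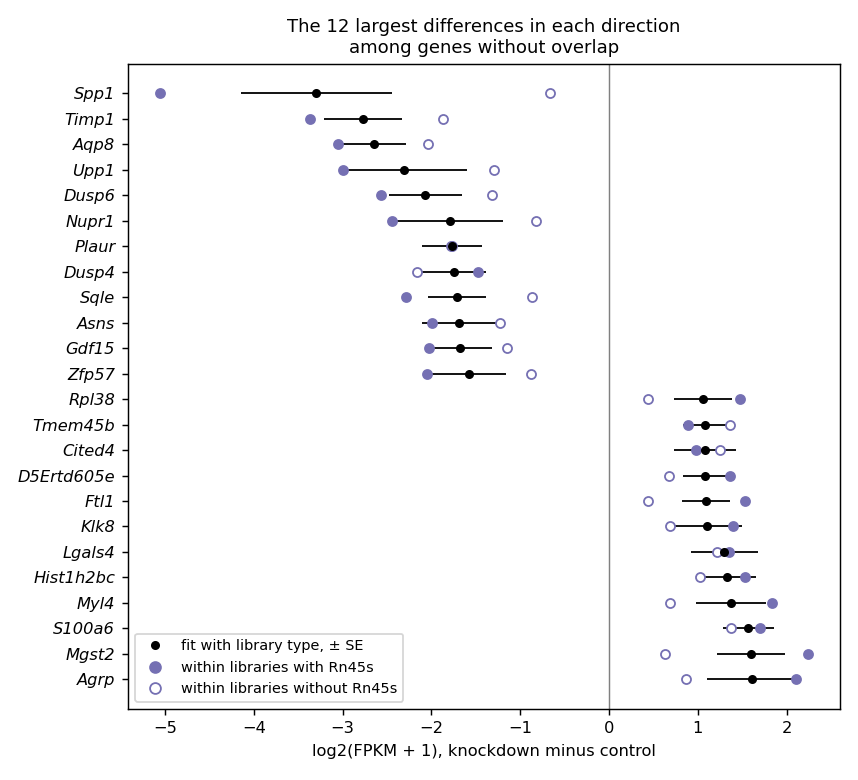
Black points and bars give the difference, knockdown minus control in log2(FPKM + 1), with its SE from the fit with library type. Filled and open purple points give it within libraries with and without Rn45s, and for Spp1 these are -5.06 and -0.66.

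The promoter letters of a few of these genes are shown, since Gata4 acts through GATA sites. The windows are the 250 bases before the RefSeq start site on GRCm38.p6, 5′ to 3′ on the gene's strand. Capitals mark the word AGATAA, the word AGATAG, the word TGATAA or the word TGATAG on either strand, and a base may belong to more than 1 of these 4 words. Aqp8 and Timp1 are shown as called genes of the fit without library type that have no near-identical copy, at chr7:123462044-123462293 and chrX:20869916-20870165 on the + strand. Spp1 is shown as the largest difference, with the second of its 2 RefSeq windows, at chr5:104435942-104436191 on the + strand. This window is printed because it holds such words and the first holds none. The first window ends at chr5:104435110, so the printed one lies downstream of the first start site.
Aqp8: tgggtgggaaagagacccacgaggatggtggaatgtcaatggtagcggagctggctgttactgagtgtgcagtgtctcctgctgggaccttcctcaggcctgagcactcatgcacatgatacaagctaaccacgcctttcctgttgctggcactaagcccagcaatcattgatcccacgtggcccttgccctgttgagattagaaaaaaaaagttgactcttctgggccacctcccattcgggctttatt
Timp1: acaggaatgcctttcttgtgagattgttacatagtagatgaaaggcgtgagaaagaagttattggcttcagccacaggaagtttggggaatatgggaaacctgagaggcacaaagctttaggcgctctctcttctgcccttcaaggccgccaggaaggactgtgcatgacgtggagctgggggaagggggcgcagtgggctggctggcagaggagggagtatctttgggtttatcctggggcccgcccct
Spp1: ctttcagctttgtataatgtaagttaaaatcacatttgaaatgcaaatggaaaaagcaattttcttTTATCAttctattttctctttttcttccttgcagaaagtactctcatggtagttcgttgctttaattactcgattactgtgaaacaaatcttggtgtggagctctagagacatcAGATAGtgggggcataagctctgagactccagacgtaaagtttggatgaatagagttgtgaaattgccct
The Aqp8 and Timp1 windows hold none of the words, the first Spp1 window holds none and the second holds 2. Over all genes 29.7% had a word in at least 1 window. Among the 10 of the 12 genes with the largest negative differences that the table holds, 4 had one. These 4, Gdf15, Spp1, Upp1 and Zfp57, are also the only ones of the 10 with more than 1 window. More windows give more room for a match, so the share is not compared further. Among 8 of the 12 with the largest positive differences 0 had one. A match is a description of letters and not a binding site.

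The 9 transcription factors of the primitive endoderm list were at low levels, and 3 of them could be tested. Gata6, which acts with Gata4 in this lineage, had 25.0, 26.3, 9.83 and 6.55 FPKM in knockdown libraries 1 to 4, against 12.1, 26.0 and 7.81 FPKM in control libraries 1 to 3. The groups overlapped and followed the library type, with a difference of -0.16 (unadjusted p = 0.498) that was 0.01 under median scaling. Sox17 was listed at 0, 0.121, 0 and 0 FPKM in knockdown libraries 1 to 4, against 0.626, 0.383 and 0.952 FPKM in control libraries 1 to 3, so no library reached 1 FPKM, although no knockdown came up to a control. Sox7 had 0.0495, 0.620, 0 and 0 FPKM in knockdown libraries 1 to 4, against 0.553, 0.379 and 2.4 FPKM in control libraries 1 to 3, with knockdown library 2 inside the range of the controls. Hhex differed by -0.41 (unadjusted p = 0.169). Foxa2, Foxq1 and Hnf4a did not pass the filter.

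Of the 12 receptors and endocytic proteins of this lineage, 7 were tested, and 3 of the 7 differences were negative, with a median of 0.03. Over all genes 67.7% of differences were negative, with a median of -0.13. Pdgfra, the receptor that marks early primitive endoderm, had 0.0117, 1.26, 0.0151 and 0 FPKM in knockdown libraries 1 to 4, against 1.53, 0.885 and 1.57 FPKM in control libraries 1 to 3. Knockdown library 2 lay among the controls and the other knockdowns were near 0, with a difference of -0.93 and an SE of 0.32 (unadjusted p = 0.0199, adjusted p = 0.593). Dab2, an adaptor of endocytosis, had 142, 107, 54.6 and 84.7 FPKM in knockdown libraries 1 to 4, against 58.9, 101 and 63.3 FPKM in control libraries 1 to 3, a difference of 0.21 within the spread of the libraries. Lrp2, the endocytic receptor megalin, differed by 0.35, its chaperone Lrpap1 by 0.03 and the FGF receptor Fgfr4 by 0.15, and all 3 overlapped between the groups; Lrpap1 was -0.01 at equal totals. Amn, which anchors the cubilin receptor, differed by -1.07 (unadjusted p = 0.170), with 15.1 FPKM in control library 3 as its highest value, and the complement regulator Cd55 differed by -0.49. Cubn, Fgfr3, Pth1r, Bmp2 and Srgn did not pass the filter. Pth1r, a parathyroid hormone receptor of parietal endoderm, had 0.0680, 0.367, 0 and 0 FPKM in knockdown libraries 1 to 4, against 4.59, 0.0950 and 5.02 FPKM in control libraries 1 to 3. Within libraries without Rn45s, knockdown library 2 was thus above the only control for Pth1r. The proteoglycan core protein Srgn was listed at 0 in all 4 knockdown libraries, against 0.982, 0.833 and 12.6 FPKM in control libraries 1 to 3. Levels of Cubn, Fgfr3 and Bmp2 are not reported here, so Pth1r and Srgn do not stand for all untested members.

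Most basement membrane genes stood lower in the knockdown libraries, although none passed the adjusted p. Of the 21 measured, 19 were tested, and 17 of the 19 differences were negative, against 67.7% of all genes. The median was -0.84 against -0.13 for all genes. At an unadjusted p under 0.05, 10 were lower and 0 higher, and 5 were lower without overlap in both library types, against 6.00%, 2.02% and 13.2% of all genes. The median was -1.12 within libraries with Rn45s and -0.10 within libraries without, where only 1 control library stands against 2 knockdowns. The summed level of the list was 54.2 to 86.1 FPKM in knockdown libraries and 91.4 to 231 FPKM in control libraries, and after scaling to equal totals it was 60.2 to 74.0 against 74.7 to 302.

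The 3 chains of laminin 111, the main laminin of this membrane, were among them. Lama1 had 1.23, 1.99, 0.358 and 0.944 FPKM in knockdown libraries 1 to 4, against 5.42, 1.68 and 11.9 FPKM in control libraries 1 to 3. Control library 2 lay within the range of the knockdowns, and the difference was -1.51 with an SE of 0.50 (unadjusted p = 0.0156). Lamb1 had 6.83, 6.92, 4.54 and 4.74 FPKM in knockdown libraries 1 to 4, against 11.1, 8.93 and 21.0 FPKM in control libraries 1 to 3. Lamc1 had 4.61, 3.29, 2.34 and 1.04 FPKM in knockdown libraries 1 to 4, against 7.80, 6.06 and 10.7 FPKM in control libraries 1 to 3. For Lamb1 and Lamc1 every knockdown library was below every control, at differences of -1.05 and -1.39 (unadjusted p = 0.00862 and 0.00332). The other laminin chains Lama5 and Lamb2 differed by -0.17 and -0.50, and both overlapped between the groups.

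The 2 chains of type IV collagen, which form the network of the membrane, showed like patterns. Col4a1 had 0.50, 2.36, 0.583 and 0.468 FPKM in knockdown libraries 1 to 4, against 4.01, 1.65 and 9.28 FPKM in control libraries 1 to 3. Col4a2 had 0.556, 1.38, 0.652 and 0.317 FPKM in knockdown libraries 1 to 4, against 2.14, 1.25 and 5.48 FPKM in control libraries 1 to 3. For both chains knockdown library 2 was above control library 2, and the other knockdowns were below all controls. Their differences were -1.44 and -1.06 (unadjusted p = 0.0162 and 0.0213). The 2 genes lie head to head on chromosome 8, and their RefSeq start sites at 11312826 and 11312805 on GRCm38.p6 are 21 bases apart on opposite strands. Their windows, chr8:11312827-11313076 on the - strand for Col4a1 and chr8:11312555-11312804 on the + strand for Col4a2, are shown as they flank these start sites on either side and share no base. By these coordinates the start sites cross over, so each window also lies downstream of the other gene's start site.
Col4a1: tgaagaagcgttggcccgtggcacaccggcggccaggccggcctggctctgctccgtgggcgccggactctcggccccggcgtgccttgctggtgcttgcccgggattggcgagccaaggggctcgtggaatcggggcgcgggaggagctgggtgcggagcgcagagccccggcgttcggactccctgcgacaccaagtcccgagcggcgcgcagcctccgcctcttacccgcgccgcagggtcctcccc
Col4a2: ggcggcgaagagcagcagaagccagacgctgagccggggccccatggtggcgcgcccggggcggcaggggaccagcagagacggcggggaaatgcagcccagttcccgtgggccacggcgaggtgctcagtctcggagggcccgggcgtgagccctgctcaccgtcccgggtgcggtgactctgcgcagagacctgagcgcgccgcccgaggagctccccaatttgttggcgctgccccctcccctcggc
Neither window holds a GATA word of the kind searched, and 1 of the 14 tested basement membrane genes with a window did, against 29.7% of all genes.

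Genes for proteins that fold and modify collagen were part of this list. Serpinh1, the collagen chaperone HSP47, had 0.541, 2.78, 0.969 and 0.634 FPKM in knockdown libraries 1 to 4, against 5.60, 2.33 and 10.6 FPKM in control libraries 1 to 3, a difference of -1.56 (unadjusted p = 0.00881). Plod2, a collagen lysyl hydroxylase, had 0.151, 1.25, 0.0907 and 0.0316 FPKM in knockdown libraries 1 to 4, against 2.25, 1.52 and 2.06 FPKM in control libraries 1 to 3, and its groups did not overlap, at a difference of -1.20 (unadjusted p = 0.00309). The prolyl hydroxylase subunits P4ha1 and P4ha2 differed by -0.84 and -0.76 (unadjusted p = 0.0172 and 0.0281). Plod1 and Plod3 differed by -0.05 and -0.40 and overlapped between the groups, and Plod1 was 0.06 under median scaling.

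Among the linking and associated proteins, Sparc, a collagen-binding glycoprotein, had 13.0, 14.5, 9.21 and 5.45 FPKM in knockdown libraries 1 to 4, against 22.4, 11.5 and 49.8 FPKM in control libraries 1 to 3. Control library 2 lay among the knockdowns, and the difference was -1.16 (unadjusted p = 0.0447). Nidogen genes, which join laminin to collagen, differed from each other, with -0.91 for Nid1 and 0.32 for Nid2 (unadjusted p = 0.0689 and 0.407). Fibronectin (Fn1) differed by -0.62, dystroglycan (Dag1) by -0.28 and agrin (Agrn) by 0.09, and these 3 overlapped between the groups. Hspg2 and Col18a1 did not pass the filter.

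**Figure D4:**
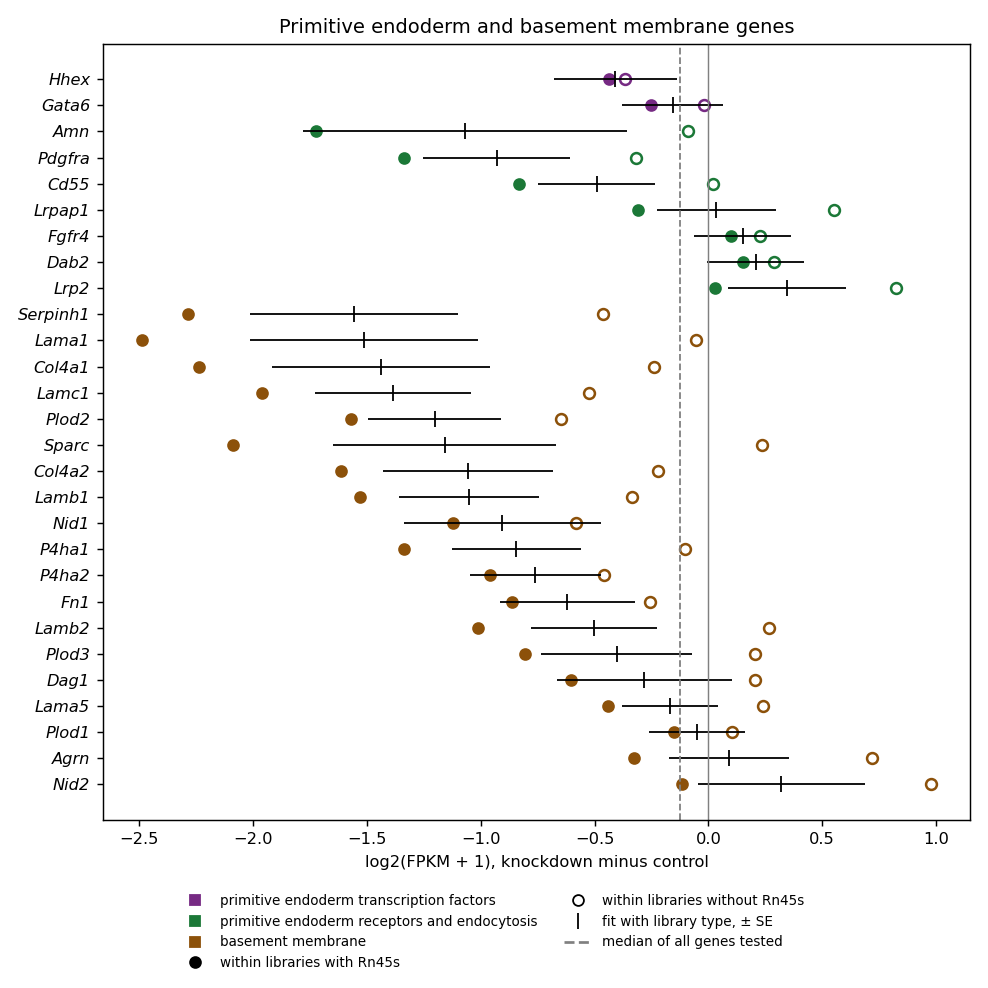
Filled and open points give the difference, knockdown minus control in log2(FPKM + 1), within libraries with and without Rn45s, and the tick and bar give the fit with library type and its SE. Within libraries with Rn45s Lama1 lies furthest left at -2.49, the open brown points of basement membrane genes lie nearer 0 at a median of -0.10, and the dashed line marks the median of all genes at -0.13.

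The libraries of a group were not alike in these genes. Over the 42 genes of the 3 primitive endoderm lists in the table, control library 3 held the highest control value for 30. Of the 40 of them above 0 in any knockdown library, knockdown library 2 held the highest knockdown value for 23. Knockdown library 1 held it for 10. These 2 libraries, without Rn45s, also had higher medians over all genes tested, at 6.63 and 7.43 FPKM. Knockdown libraries 3 and 4 had 3.58 and 4.12 FPKM. The same count over all genes was not made. Gata4 is one of the genes counted, and among the knockdowns it was above 0 in library 2 alone. The median difference of the 29 tested genes was -0.62, and it was -0.37 without control library 3, -0.99 without control library 2 and -0.64 without knockdown library 2. Whether the share of primitive endoderm differed between these libraries was not tested.

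Of 7 tested genes for later endoderm and secreted proteins 4 had a negative difference, with a median of -0.48, where 67.7% of all genes were negative. Snai1, a repressor of cadherins, had 0.291, 1.05, 0.488 and 0.670 FPKM in knockdown libraries 1 to 4, against 2.04, 6.45 and 3.35 FPKM in control libraries 1 to 3. Its groups did not overlap, at a difference of -1.6 with an SE of 0.29 (unadjusted p = 4.5e-04, adjusted p = 0.395). The lipid carrier Apoe had 190, 164, 105 and 178 FPKM in knockdown libraries 1 to 4, against 181, 241 and 207 FPKM in control libraries 1 to 3, a difference of -0.48.

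Among 17 tested epiblast and pluripotency genes 11 differences were negative, with a median of -0.36, and 5 were lower and 0 higher at an unadjusted p under 0.05, against 67.7% negative, 6.00% lower and 2.02% higher over all genes. Nanog, a core pluripotency factor, had 45.3, 30.5, 18.5 and 12.3 FPKM in knockdown libraries 1 to 4, against 16.0, 59.6 and 19.1 FPKM in control libraries 1 to 3. Pou5f1, which encodes OCT4, had 36.1, 38.3, 53.7 and 27.6 FPKM in knockdown libraries 1 to 4, against 27.1, 46.9 and 19.0 FPKM in control libraries 1 to 3. Both overlapped, at differences of -0.38 and 0.31 (unadjusted p = 0.139 and 0.348). Sox2 reached 1 FPKM in 2 control libraries and was not tested, and Fgf4, the FGF ligand of the epiblast, was not tested either. Prdm14, a germline and epiblast regulator, differed by -0.71, Zfp42 by -0.53, Utf1 by -1.0 and Tbx3 by -0.54 (unadjusted p = 0.0116, 0.0131, 0.0166 and 0.0336). Tdgf1 at -1.67 and Dppa3 at 0.84 have near-identical copies.

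Trophectoderm genes had a median difference closer to 0. Of 20 tested, 13 differences were negative, the median was -0.06, and 0 passed an unadjusted p of 0.05 in limma in either direction. Over all genes 67.7% of differences were negative, with 6.00% lower and 2.02% higher at that threshold. Cdx2, the factor that specifies this layer, had 22.2, 14.6, 8.28 and 9.02 FPKM in knockdown libraries 1 to 4, against 10.6, 21.5 and 13.8 FPKM in control libraries 1 to 3, a difference of -0.36. Gata3, a GATA factor of trophectoderm, had 150, 113, 51.5 and 89.2 FPKM in knockdown libraries 1 to 4, against 79.6, 132 and 123 FPKM in control libraries 1 to 3, a difference of -0.33. Both overlapped between the groups, and levels followed the library type in the knockdowns. Gata2 differed by -0.94 (unadjusted p = 0.0785), Tfap2c by -0.02 and the keratin Krt8, which has near-identical copies, by -0.05, and under median scaling Tfap2c and Krt8 were at 0.16 and 0.13.

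Junction and fluid transport genes held Aqp8 and a wider group. Of 22 tested, 18 differences were negative, with a median of -0.32, and 3 were lower and 0 higher at an unadjusted p under 0.05, against 67.7% negative, 6.00% lower and 2.02% higher over all genes. Among the 3 is Aqp8, which entered the test through the controls alone. Tjp3, a tight junction scaffold, had 23.7, 13.4, 13.3 and 21.4 FPKM in knockdown libraries 1 to 4, against 24.3, 35.5 and 40.8 FPKM in control libraries 1 to 3, so all knockdowns were below all controls, at a difference of -0.90. The sodium pump subunit Atp1b1 differed by -0.83 (unadjusted p = 0.0123), the claudins Cldn4 and Cldn7 by -0.89 and -0.55, and the water channel Aqp3 by -0.64. E-cadherin (Cdh1) overlapped, at -0.32.

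Of 16 tested genes of FGF and ERK signalling 10 differences were negative, the median was -0.24, and 4 were lower and 0 higher at an unadjusted p under 0.05, against 67.7% negative, 6.00% lower and 2.02% higher over all genes. Feedback genes that ERK induces were the lowest: beside Dusp6 and Dusp4, Spry2 differed by -1.17 and Etv5, which has near-identical copies, by -0.61 (unadjusted p = 0.0389 and 0.0106). The receptor Fgfr2 had 14.9, 9.88, 5.54 and 9.26 FPKM in knockdown libraries 1 to 4, against 9.08, 14.5 and 14.1 FPKM in control libraries 1 to 3, with overlap. Of 9 tested genes in the list of matrix proteases and inhibitors 7 differences were negative, with a median of -0.25, against 67.7% negative over all genes. The 3 at an unadjusted p under 0.05 in limma were Spp1, Timp1 and Plaur. They were already named above among the largest negative differences and are counted again here. Only Timp1 of these 3 is an inhibitor, and Spp1 and Plaur are neither proteases nor inhibitors.

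The next lists had medians between -0.19 and -0.06. Over all genes the median was -0.13, with 6.00% lower and 2.02% higher at an unadjusted p under 0.05 in limma. For 18 genes of the p53 response the median was -0.06, with 2 lower and 1 higher at an unadjusted p under 0.05. For 21 proliferation genes it was -0.19 with 0 in either direction, for 5 tested members of the GATA family list -0.16 with 0 in either direction, and for 12 housekeeping genes -0.06 with 1 lower and 1 higher. None of the oocyte markers reached the filter, and their summed level was 0.854 to 2.19 FPKM in knockdown libraries and 1.09 to 1.60 FPKM in control libraries. Markers of cumulus and granulosa cells summed to 0.214 to 18.6 FPKM in knockdown libraries and 0.475 to 6.49 FPKM in control libraries, nearly all from Cyp11a1, with Has2, Ptx3 and Foxl2 listed at 0. Markers of blood cells summed to 2.92 to 12.9 FPKM in knockdown libraries and 1.78 to 4.40 FPKM in control libraries, mostly from the macrophage gene Cd68. The part of such cells in the results was not tested.

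**Figure D5:**
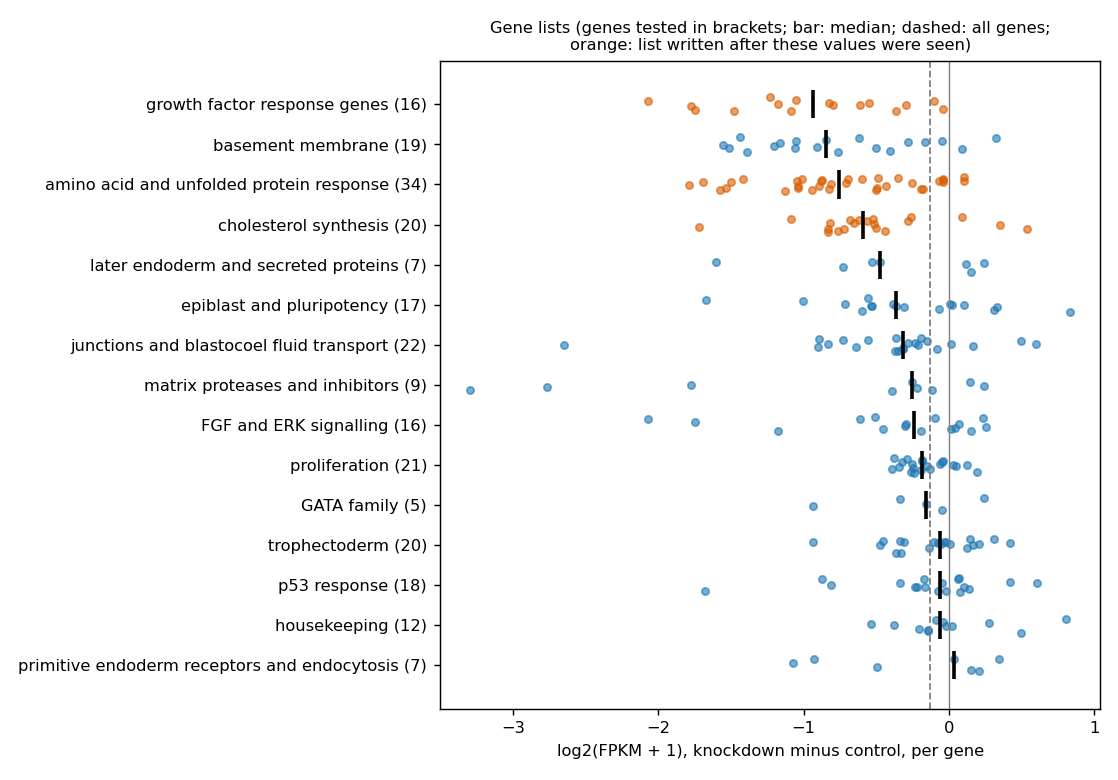
Each point is the difference of 1 gene, knockdown minus control in log2(FPKM + 1), by list, with a bar at the list median and a dashed line at -0.13, the median of all genes. Basement membrane has the lowest median, -0.84, of the lists in blue, and the lists in orange were written after these values were seen.

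Genes were also split by the authors' stage table, which has 1 value per stage. Of 1641 tested genes at least 1 log2 unit higher in the inner cell mass, 1172 differences were negative, with a median of -0.16, and 159 were lower and 30 higher at an unadjusted p under 0.05. Of 1197 genes lower in the inner cell mass, 740 were negative, with a median of -0.09, and 52 were lower and 36 higher. Over all genes the median was -0.13 and 67.7% of differences were negative. At an unadjusted p under 0.05 in limma, 6.00% of all genes were lower and 2.02% higher.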

How the data were processed

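The samples were 4 Gata4 knockdown and 3 control blastocyst libraries, grouped by title. The authors deposited FPKM values per gene and library in a blastocyst table, and FPKM per stage in a stage table with 1 value per gene and stage. The tools CASAVA 1.8, STAR 2.4.0 and Cufflinks 2.2.1 and the build mm9 are named per the submitters' processing notes. Read totals are not given, so no interval from counts is made. FPKM is relative within a library, so the share taken by Rn45s moves all other values, and genes with near-identical copies (95% identity over 50% of the coding sequence, minimap2 2.31) can lose reads: Ppia is listed at 0 in 3 libraries.

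Values were taken as log2(FPKM + 1), which understates changes of low genes. Genes at 1 FPKM or more in 3 libraries were fitted with limma 3.58.1 (R 4.3.3, trend in the prior variance), with knockdown and library type as terms and Benjamini-Hochberg adjustment over 8782 genes; 0.05 was the threshold. The fit was tested on simulated data. Other work used Python 3.11.15. The members and gene lists were chosen with earlier results of these data known, and 3 lists were written after the values were seen. Named genes are Gata4, genes called with or without the library type, the 12 largest differences in each direction among genes without overlap and at 5 FPKM, members of the primitive endoderm lists and, of each other list, at most 6 members taken in order of p; a few such genes are not reported here. Coordinates come from RefSeq on GRCm38.p6, not from the files' build. The 20 alternatives covered scaling, filter, pseudocount, library type, replicate block and leaving out each library.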

Additional observations from a re-analysis of the deposited data

Results flagged for a closer look

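In 7 of 107 named genes, 1 knockdown library stood apart from the others by Dixon's criterion for 4 values. Chance gives this in about 1 of 20 groups of normally distributed values, and the count is near that share. Where the other knockdown libraries are all at 0, as for Gata4 and Sox17, any value above 0 is flagged. Knockdown library 2 stood above the others in 6 of them. It had Gata4 at 0.368 FPKM and Sox17 at 0.121 FPKM, both listed at 0 in the others. It had Sox7 at 0.620 FPKM, with the others at 0 to 0.0495 FPKM. It had Pdgfra at 1.26 FPKM (others 0 to 0.0151 FPKM), Col4a1 at 2.36 FPKM (others 0.468 to 0.583 FPKM) and Plod2 at 1.25 FPKM (others 0.0316 to 0.151 FPKM). Knockdown library 3 stood below the others in Dag1 at 6.42 FPKM, with the others at 12.9 to 14.3 FPKM. Without knockdown library 2 the median difference of the 29 tested primitive endoderm genes was -0.64, against -0.62 with it.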

How the results depend on the processing

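Of 1917 values of named genes across the 20 alternatives 1861 kept their direction and side of the threshold, and of 300 list medians 285 moved by less than the spread between libraries. The cause of the exceptions was not tested. The Gata4 level difference, -1.65, was -4.01 with a pseudocount of 0.1, -0.59 with a pseudocount of 5 and -2.38 with only the libraries with Rn45s, and -2.38 to -1.31 when each library was left out. No gene was called lower. There were 3 without the library type and 6 with no filter (the 2 largest differences being -0.47 and -0.40). When each library was left out there were 0 to 1. The 1 was Timp1 without knockdown library 2, which entered that fit through the controls alone. Same-numbered libraries had residual correlations of 0.036, -0.56 and -0.46 in the main fit. The fit constrains residuals to sum to 0 within each library type, so these values cannot show whether such libraries pair. A replicate block with the library type gave 0 calls, and one without it, chosen after seeing the data, gave 14 lower and 4 higher. Rn45s, whose level defines the library types, was itself among the genes tested. Genes different between library types, 4496, were 1 under each of median scaling, quantile normalization and equal totals without Rn45s, 1 with the replicate block and library type, and 2490 with no filter. They were 2407 without knockdown library 1, 2817 without control library 2 and at most 4367 when each library was left out. The median of primitive endoderm genes ranged from -0.99 without control library 2 to -0.37 without control library 3.

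With the block and no library type, the medians of FGF and ERK signalling and of proliferation were 0.035 and 0.18, Gata6 0.43, Nanog 0.15, Krt8 0.038 and Tfap2c 0.0042. With the block and library type, Gata6 was 0.16, Dab2 -0.062, Nid2 -0.10 and Plod1 0.042. Without the library type Gata6 was 0.087, Krt8 6.5e-05 and Tfap2c 0.086. Median scaling gave 0.012 for Gata6, 0.058 for Plod1, 0.13 for Krt8 and 0.16 for Tfap2c. Quantile normalization gave -0.00099 for Lrpap1, 0.091 for Plod1 and 0.084 for Tfap2c. At equal totals Lrpap1 was -0.0068, and without the library type as well, chosen after seeing the data, Lrpap1 was -0.018 and Agrn -0.11. With only the libraries with Rn45s Lrpap1 was -0.31, Nid2 -0.12, Agrn -0.33, Tfap2c 0.18 and Cyp11a1 0.95. When each library was left out, Gata6 ranged from -0.28 to 0.0092, Lrpap1 from -0.31 to 0.30, Nid2 from -0.12 to 0.72, Plod1 from -0.17 to 0.12, Dag1 from -0.60 to 0.15, Agrn from -0.33 to 0.30, Pou5f1 from -0.030 to 0.74, Krt8 from -0.16 to 0.023, Tfap2c from -0.43 to 0.29 and Cyp11a1 from -1.46 to 0.95. FPKM without read totals limits what can be said of genes near 0, Gata4 among them.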

Other observations

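Lists of genes for amino acid supply and the unfolded protein response, cholesterol synthesis and growth factor response were written after these values were seen, so their values are described without a test. Over all genes tested 67.7% of differences were negative, with a median of -0.13. Of 34 tested among 44 listed genes of amino acid supply and the unfolded protein response, 32 differences were negative, with a median of -0.76. Asns and Nupr1, already named above among the largest negative differences, are counted again here. Psat1, an enzyme of serine synthesis, had 46.4, 21.0, 6.52 and 30.5 FPKM in knockdown libraries 1 to 4, against 37.0, 84.4 and 57.5 FPKM in control libraries 1 to 3. Within each library type the knockdowns were lower. The amino acid transporter Slc7a5 had 2.33, 1.95, 1.05 and 0.610 FPKM in knockdown libraries 1 to 4, against 2.91, 4.42 and 4.55 FPKM in control libraries 1 to 3, with no overlap. The serine enzymes Psph and Shmt2 differed by -1.05 and -0.83, and the transfer RNA synthetases Aars, Gars, Nars and Sars by -1.04, -0.88, -0.81 and -0.70. Atf4, the transcription factor that drives this response, had 114, 83.4, 46.7 and 100.1 FPKM in knockdown libraries 1 to 4, against 70.3, 166 and 132 FPKM in control libraries 1 to 3, with overlap. Herpud1, of endoplasmic reticulum protein degradation, differed by -1.57. The summed level of the list was 609 to 1447 FPKM in knockdown libraries and 1065 to 1646 FPKM in control libraries, and at equal totals it was 832 to 1038 against 1297 to 1711, without overlap.

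Of 20 tested among 21 genes of cholesterol synthesis and uptake in the table, 17 differences were negative, with a median of -0.59. Sqle, already named above among the largest negative differences, is counted again here. Lss, the lanosterol synthase, had 3.94, 2.89, 3.79 and 1.86 FPKM in knockdown libraries 1 to 4, against 5.89, 6.10 and 5.14 FPKM in control libraries 1 to 3, with no overlap. Msmo1 differed by -1.09, Fdft1, which has near-identical copies, by -0.83, Mvk by -0.66 and Insig1 by -0.51. The list median was -0.81 within libraries with Rn45s and -0.12 within those without. Of 31 listed growth factor response genes, 16 were tested, and those 16 had negative differences, with a median of -0.94. Dusp6, Dusp4, Plaur, Spry2 and Etv5, already named above as lower, are counted again among these 16. Nr4a1, an immediate early nuclear receptor, had 3.04, 2.23, 2.13 and 0.611 FPKM in knockdown libraries 1 to 4, against 5.46, 7.41 and 6.72 FPKM in control libraries 1 to 3, with no overlap. Id3 differed by -1.23, Ier2 by -0.83 and Myc by -0.80. Summed over the 31 listed genes, levels were 321 to 1331 FPKM in knockdown libraries and 598 to 1126 FPKM in control libraries. At equal totals they were 439 to 955 against 728 to 920. The groups overlapped both ways, with knockdown library 1 above every control.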
